A study of Mus musculus with 24 samples.

Results

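RNA-Seq counts of skin from C3H/HeJ mice with alopecia areata (AA) were compared between mice given the JAK3-selective inhibitor PF-06651600 (JAK3i) and mice given tofacitinib (Tofa). The comparison was defined by the column names of the count table, 3 JAK3i and 3 Tofa libraries, which are 6 of the 24 libraries of the series, and it was made across every gene that passed a filter on low counts. It sets inhibition of JAK3 alone beside a broader inhibitor given at an equal dose.

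JAK3 is bound to the common γ chain (γc), the receptor subunit shared by IL-2, IL-4, IL-7, IL-9, IL-15 and IL-21, where it acts together with JAK1. JAK1 also serves receptors that have no γc, among them those for IFN-γ, type I interferons and the IL-10, IL-20 and IL-6 families. Tofacitinib blocks JAK1 and JAK3, and at higher exposure other JAKs, so it can reach receptors of both kinds. In AA, cytotoxic T cells attack the growing hair follicle, and IFN-γ made by these cells induces chemokines and MHC molecules in the skin.

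All groups were labelled as strain C3H/HeJ AA and tissue skin. According to the study's methods, AA was transferred by grafting of alopecic skin or by T cells, and JAK3i and tofacitinib were each given systemically, at an equal dose, from an implanted osmotic pump, whereas the protocol attached to the samples describes an ointment applied to the skin. The study describes the sequenced biopsies as taken around systemic treatment, and this conflict with the sample protocol was not settled here. The length of treatment before these biopsies, and the age and sex of the mice, were not given for both groups in the sources used here. Vehicle libraries (n = 3, labelled as controls) are given after JAK3i and Tofa as the level in skin without an inhibitor, and JAK1i, JAK2i and ruxolitinib (Ruxo) libraries (n = 3 each) are named only where they touch a result. Nothing in the labels says that the 3 libraries of a group came from separate mice, so p-values measure only the spread between libraries.

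Totals were 18677283 to 19233121 counts in JAK3i libraries and 18174826 to 20060322 in Tofa libraries, within a range of 17311913 to 21858670 over all 24. Levels are CPM, library-size normalised read counts, after TMM scaling. Krt14, a keratin of basal skin cells, was at 2478 to 3339 CPM in JAK3i and 2424 to 3111 CPM in Tofa libraries, and genes of skeletal muscle took 3.90 to 5.12% of counts in JAK3i and 2.20 to 5.51% in Tofa libraries. A small deposited table of AA signature genes disagrees with the count table on library names. In 18 of its 24 columns the values track the count library that carries that name, and in 6 they track a different one. Its JAK3i #1 matches count column JAK1i #3 and its JAK3i #2 matches count column JAK2i #3, while JAK3i #3 and all 3 Tofa names match. Count columns JAK1i #2 and #3 are also among the 6. Within the count table the 3 JAK3i libraries were alike in Cd4, at 90.2 to 111 CPM, with all 21 other libraries below 10 CPM. The groups below follow the count table, and leading counts are also given with JAK3i #3 as the sole JAK3i library. In bulk skin, fewer cells of a type and less RNA per cell cannot be told apart.

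JAK3i and Tofa skin differed widely. Of 17770 genes tested, 6990 (39.3%) passed the test (edgeR quasi-likelihood, adjusted p below 0.05), of which 3318 (18.7%) were higher and 3672 (20.7%) were lower in JAK3i. At an unadjusted p below 0.05 the count was 8371 (47.1%). A difference of at least 2-fold was called in 939 genes (5.28%) that were higher and 1231 (6.93%) that were lower in JAK3i. The median log2 fold change over all genes was 0.02, so the scale was centred, and 11520 genes (64.8%) had a 95% confidence interval within 1 log2 unit of 0. With JAK3i #3 alone against the 3 Tofa libraries 4015 genes were called, and 3801 of the 6990 were among them in the same direction. Vehicle skin lay above both inhibitors for 53.5% of the genes lower in JAK3i, against 39.0% of all genes. When each group was set against the single pretreatment library of its own cohort, 1292 genes were called, 1238 of them among the 6990 in the same direction. Among called genes with non-overlapping groups and a mean log2 CPM of at least 1, the 10 largest rises were Atp6v0d2, Bcl2a1b, Lilra5, Trem2, Clec7a, Fcgr4, Gpnmb, Kcnj10, Cd300lf and Clec12a, most of them genes of myeloid cells. The 10 largest falls were Ifi202b, Serpinb6d, Rptn, Serpina12, P2ry4, Sdr9c7, Krt23, Lipn, Dsc1 and Asprv1, several of them genes of the upper epidermis.

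**Figure D1:**
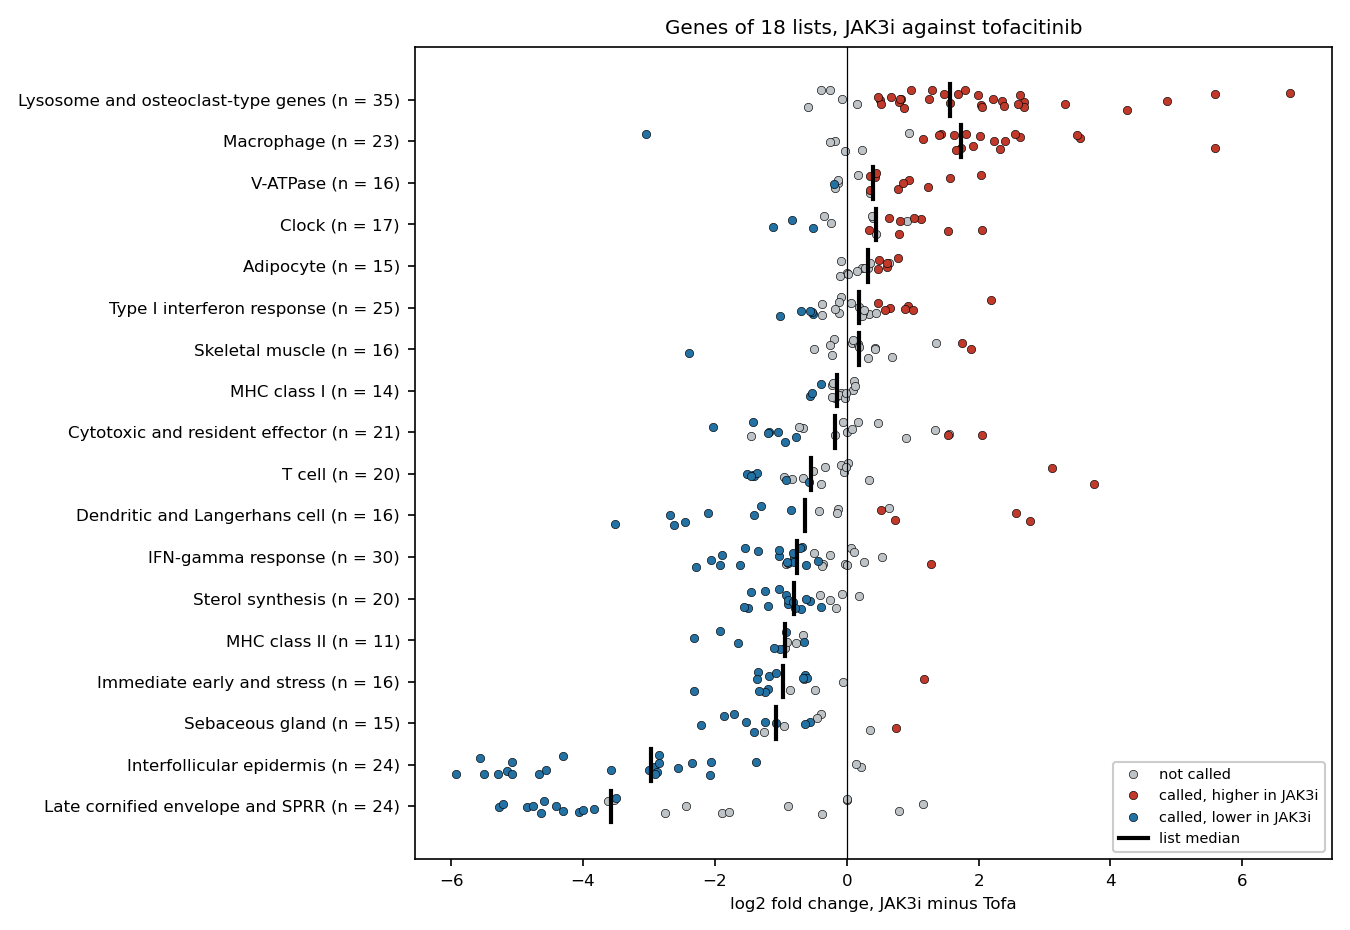
Log2 fold change of JAK3i over Tofa (x axis) for each gene tested in 18 gene lists (y axis, n = genes tested), red where called higher in JAK3i, blue where called lower, gray where not called, with a black bar at the list median. Lysosome and macrophage genes lie to the right of 0, with medians of 1.57 and 1.73, and epidermal genes to the left, with medians of -2.96 and -3.57.

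Macrophage and lysosome genes were higher in JAK3i than in Tofa skin. Of 23 macrophage genes tested, 17 rose, 1 fell and 5 were not called, with a median log2 fold change of 1.73. Of 35 genes of lysosomes and of the osteoclast-type program of lysosome-rich macrophages, 30 rose and the other 5 were not called, with a median of 1.57. Over all genes 18.7% rose and the median was 0.02. Members of these and all other lists were chosen with earlier results of these data known. Such counts therefore describe the lists and do not test them. Fewer genes of both lists were called relative to each cohort's pretreatment library, which has no replicate. With JAK3i #3 as the sole JAK3i library the counts of rises were 13 and 22. Libraries of JAK3i skin summed to 3970 to 5065 CPM over the macrophage list, against 1179 to 1450 CPM in Tofa and 1577 to 1790 CPM in vehicle libraries. For 13 of the 23 and 24 of the 35 genes, all 3 JAK3i libraries were above all 21 other libraries of the series, which held for 6.84% of all genes.

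Atp6v0d2, a subunit of the proton pump of osteoclasts and lysosome-rich macrophages (chromosome 4, 19876838 to 19922566, GRCm38), had 328, 350 and 163 CPM in JAK3i libraries, against 2.01, 4.33 and 1.54 CPM in Tofa and 4.19, 4.22 and 3.77 CPM in vehicle libraries. The JAK3i libraries stood far above every other library, whose highest value was 5.70 CPM. The log2 fold change was 6.73 ± 0.32 (SE, edgeR adjusted p = 3.14e-11). Gpnmb, a glycoprotein of lysosome-loaded macrophages (chromosome 6, 49036518 to 49058182), had 1802, 2529 and 579 CPM in JAK3i, against 49.2, 73.8 and 47.0 CPM in Tofa and 126, 79.0 and 75.3 CPM in vehicle libraries (log2 fold change 4.85 ± 0.44). Trem2, a lipid-sensing receptor of macrophages (chromosome 17, 48346401 to 48352276), had 256, 269 and 140 CPM in JAK3i, against 3.87, 6.73 and 3.13 CPM in Tofa and 15.3, 13.7 and 13.9 CPM in vehicle libraries (5.59 ± 0.35). In each of these genes JAK3i #3 was the lowest of its group and still well clear of the Tofa libraries.

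The general macrophage marker Cd68 had 530, 605 and 363 CPM in JAK3i, against 32.3, 53.8 and 42.4 CPM in Tofa libraries (3.54 ± 0.29, adjusted p = 3.30e-08). Ms4a7, a membrane protein of tissue macrophages, changed by 3.50 ± 0.31. The remaining 6 members, named after their values were seen, did not share the rise. Mrc1, Cd163, Folr2, Clec10a and Itgam were not called, with log2 fold changes of 0.94, -0.03, -0.25, 0.23 and -0.18, and the C-type lectin Cd209f fell by 3.05 on the log2 scale. Among surface receptors, Clec7a, which senses fungal β-glucan, had 225, 304 and 135 CPM in JAK3i, against 3.09, 5.80 and 5.26 CPM in Tofa and 118, 87.5 and 89.6 CPM in vehicle libraries. The Fc receptor Fcgr4 showed 55.9, 44.7 and 22.3 CPM in JAK3i, against 1.22, 0.786 and 0.903 CPM in Tofa and 19.8, 17 and 15.8 CPM in vehicle libraries. Bcl2a1b, a survival gene of the Bcl2 family, changed by 5.82 ± 0.37, and reads may be shared with its near-identical copies.

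Among lysosomal proteins, Psap, the precursor of the saposins that help break down sphingolipids, had 6220, 6436 and 3838 CPM in JAK3i, against 776, 1052 and 842 CPM in Tofa and 1503, 1425 and 1664 CPM in vehicle libraries (2.63 ± 0.17, adjusted p = 1.60e-09). Hexa, a subunit of β-hexosaminidase, had 555, 465 and 321 CPM in JAK3i against 82.8, 99.7 and 74.3 CPM in Tofa libraries (2.38 ± 0.19). Groups did not overlap for either gene. The proteases Ctss, Ctsk, Ctsb, Ctsd, Ctsl, Ctsz and Lgmn all rose, by 1.57 to 3.31 on the log2 scale, the lowest being Ctsd and the highest Ctss. Among the genes not called were Lamp2, Spp1, Dcstamp and Ocstamp, with log2 fold changes of -0.07, -0.59, -0.39 and 0.16. A rise was thus not called for Dcstamp and Ocstamp, genes of osteoclast fusion. Of 16 subunits of the vacuolar proton pump, 10 rose and 1 fell, against 18.7% and 20.7% of all genes, with a median of 0.39. Tcirg1, the a3 subunit of lysosome and osteoclast pumps, changed by 2.03 ± 0.14 and Atp6v0a1 by 1.56 ± 0.15, while Atp6v1d was lower by 0.20 and Atp6v0d1, the widely used form of the d subunit, had a log2 fold change of 0.17 and was not called. With JAK3i #3 as the sole JAK3i library 5 subunits rose and 4 fell, and without JAK3i #2 10 rose and 3 fell. The proteases, the 4 uncalled lysosome genes, Atp6v1d and Atp6v0d1 were picked after their values were seen.

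**Figure D2:**
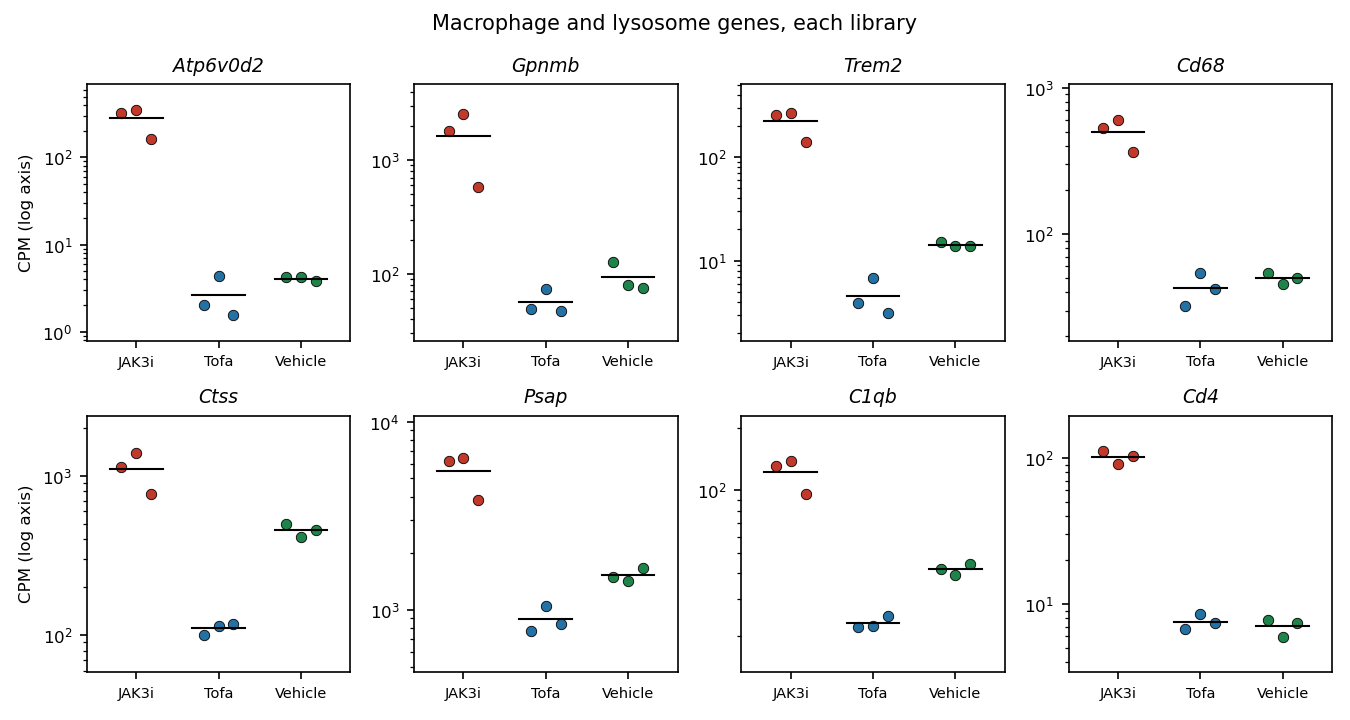
CPM on a log axis (y) in each JAK3i, Tofa and vehicle library (points, n = 3 each) for 7 macrophage and lysosome genes and Cd4, with a line at the arithmetic mean. JAK3i libraries are above Tofa libraries in all panels, for Cd68 at 363 to 605 against 32.3 to 53.8 CPM, and JAK3i #3 is the lowest of its group except for Cd4.

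The transcription factor Spi1, which macrophages need, recognises sites with the core GAGGAA. This core was searched on both strands in the 300 bases around each start site (250 before, 50 after) that RefSeq gives on GRCm38.p6. It was found in 10 of the 15 macrophage genes with such a sequence (66.7%) and in 12 of 26 lysosome genes (46.2%), against 27.2% of the 13138 genes tested that have one. The sequences of Trem2 at chr17:48346151-48346450 (plus strand), Cd68 at chr11:69666121-69666420 (minus strand) and Clec7a at chr6:129472730-129473029 (minus strand) are shown because these genes were among the largest macrophage rises, 5′ to 3′ on the strand of the gene, with the core in capitals in either orientation (TTCCTC is its reverse complement). The window of Gpnmb held no match.
Trem2: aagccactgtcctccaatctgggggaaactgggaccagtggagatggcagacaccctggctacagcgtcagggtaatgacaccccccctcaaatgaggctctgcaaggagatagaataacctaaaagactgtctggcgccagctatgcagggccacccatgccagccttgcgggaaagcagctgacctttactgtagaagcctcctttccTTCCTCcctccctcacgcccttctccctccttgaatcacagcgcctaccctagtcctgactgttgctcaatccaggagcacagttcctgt
Cd68: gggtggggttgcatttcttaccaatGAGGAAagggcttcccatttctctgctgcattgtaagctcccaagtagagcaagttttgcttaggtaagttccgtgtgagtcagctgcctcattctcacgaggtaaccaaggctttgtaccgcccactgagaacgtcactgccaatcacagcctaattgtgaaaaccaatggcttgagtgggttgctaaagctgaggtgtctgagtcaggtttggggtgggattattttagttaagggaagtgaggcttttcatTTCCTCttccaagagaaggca
Clec7a: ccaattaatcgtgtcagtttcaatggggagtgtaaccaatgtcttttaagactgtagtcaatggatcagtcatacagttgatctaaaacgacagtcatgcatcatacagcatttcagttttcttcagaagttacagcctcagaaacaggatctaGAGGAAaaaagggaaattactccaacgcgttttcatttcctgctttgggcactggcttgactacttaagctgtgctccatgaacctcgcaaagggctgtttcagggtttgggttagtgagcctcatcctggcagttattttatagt

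Genes of the suprabasal epidermis were lower in JAK3i than in Tofa skin, while the keratins of the basal layer were not. Of 24 genes of the interfollicular epidermis, 22 fell and the other 2 were not called, with a median log2 fold change of -2.96, against 20.7% of all genes lower. With JAK3i #3 alone 20 fell. DESeq2 called 12 and gave no adjusted p for 10 of the 24. Most of the 22 calls were lost relative to each cohort's pretreatment library, which has no replicate. Of 24 genes of the late cornified envelope and small proline-rich families, 12 fell and the other 12 were not called, with a median of -3.57. Of the 12 falls 10 were Lce1 genes, whose similar copies may share reads, and Lce3b and Lce3f had no counts in the 6 libraries. Summed levels of the interfollicular list were 8413 to 10924 CPM in JAK3i, 21450 to 27919 CPM in Tofa and 38071 to 42706 CPM in vehicle libraries. For 19 of the 24 genes all 3 JAK3i libraries were below all 21 others, which held for 7.41% of all genes.

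The members not called were Krt5 and Krt14, the keratin pair of dividing basal cells. Krt5 had 3968, 4573 and 5143 CPM in JAK3i and 3514, 3936 and 4280 CPM in Tofa libraries, with a log2 fold change of 0.22 (95% CI -0.09 to 0.54), and Krt14 had one of 0.14 (-0.33 to 0.60). The groups overlapped for both. Krt10, the keratin that replaces them in the spinous layer (chromosome 11, 99385254 to 99397449), had 579, 526 and 729 CPM in JAK3i, against 3965, 5401 and 5339 CPM in Tofa and 6931, 8279 and 7357 CPM in vehicle libraries (-3.00 ± 0.48, adjusted p = 5.05e-05). Its partner Krt1 fell by 1.37 on the log2 scale. Krt5, Krt14, Krt10 and Krt1 were chosen after their values were seen, as were Lor, Flg2, Ivl, Flg and Klk5 below.

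Lor, which encodes the main protein of the cornified envelope (chromosome 3, 92080271 to 92083142), had 41.9, 31.1 and 48.9 CPM in JAK3i, against 1061, 1661 and 1395 CPM in Tofa and 2925, 3472 and 3134 CPM in vehicle libraries (-5.08 ± 0.94, adjusted p = 0.00023). Ivl, another envelope protein, had 5.64, 5.16 and 4.97 CPM in JAK3i, against 176, 191 and 248 CPM in Tofa libraries. Flg2, a relative of filaggrin, had 28.8, 23.2 and 32.2 CPM in JAK3i against 1099, 1394 and 1329 CPM in Tofa libraries. In all these genes the JAK3i libraries lay close together and far below the Tofa libraries. Filaggrin itself (Flg) was lower by 2.85, and both inhibitors were below vehicle, with 22.3, 13.2 and 18.1 CPM in JAK3i, 81.1, 162 and 144 CPM in Tofa and 1894, 1602 and 1321 CPM in vehicle libraries. Hrnr, Krtdap, Calml3 and Aloxe3, the 4 members with the smallest p, fell by 5.15, 3.58, 2.34 and 2.06. Aloxe3 makes lipids of the skin barrier. Dsc1, the desmosomal cadherin of the upper layers, had 4.22, 5.82 and 5.68 CPM in JAK3i against 273, 322 and 360 CPM in Tofa libraries (-5.92 ± 0.98), and Klk5, a protease that sheds the outermost cells, changed by -5.56 ± 0.85. Asprv1, Sdr9c7 and Lipn, all of the last steps of cornification, changed by -5.90, -6.02 and -5.95.

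JAK1i libraries moved with this result, and their part in it was not tested. In the table of signature genes the values of count columns JAK1i #2 and #3 carry other names, so the names of these libraries are open as well. JAK1i #1 and #2 had 71.9 and 76.7 CPM of Lor, near the JAK3i level, while JAK1i #3 had 2892 CPM. For Dsc1 the JAK1i values were 5.87, 8 and 284 CPM. Standard errors of epidermal genes hold this spread, because all 24 libraries shared 1 fit. With the 6 JAK3i and Tofa libraries alone Dsc1 changed by -5.92 ± 0.18 and Hrnr by -5.15 ± 0.20, and 22 of 24 interfollicular genes again fell.

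**Figure D3:**
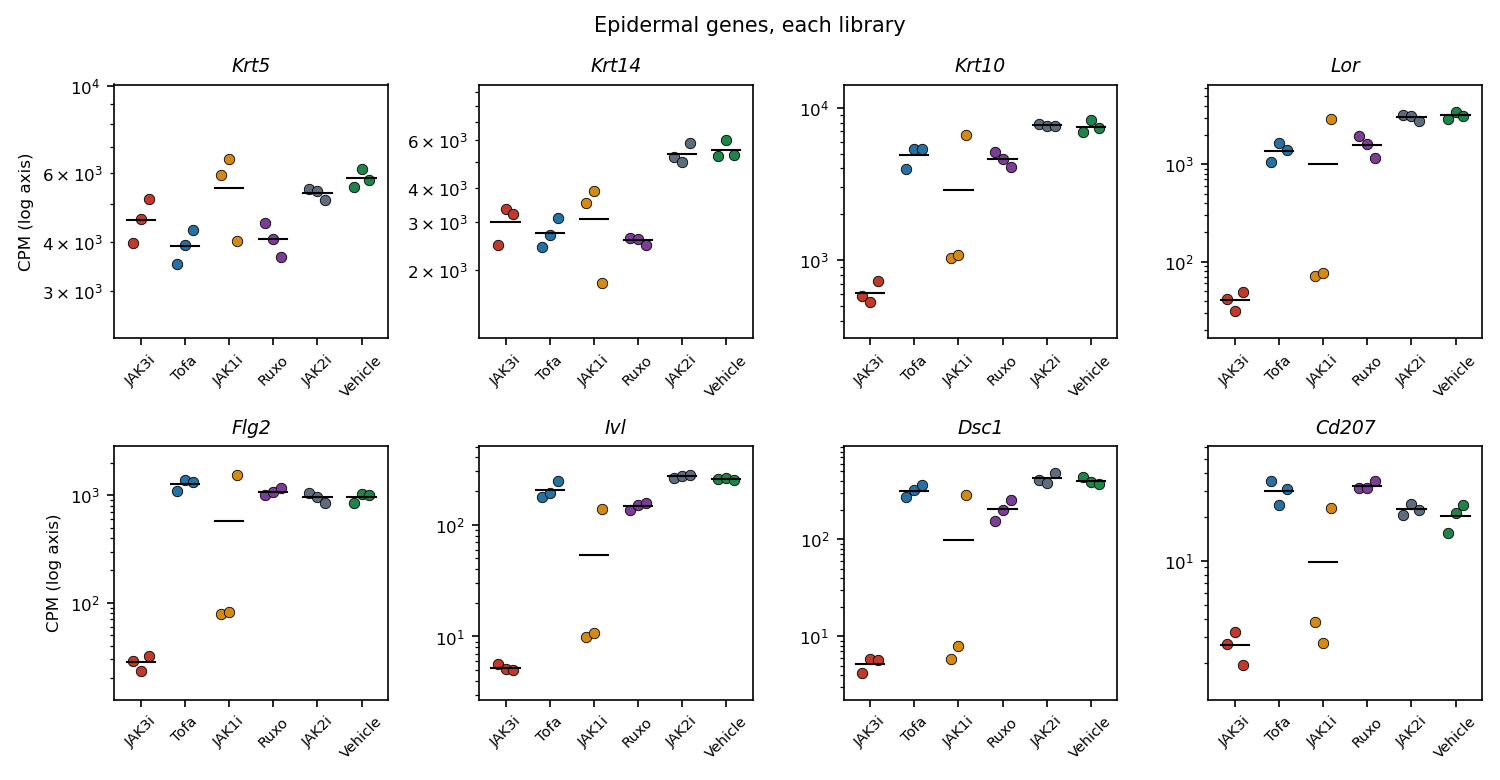
CPM on a log axis (y) in each library (points, n = 3 per group) of JAK3i, Tofa, JAK1i, Ruxo, JAK2i and vehicle skin for 7 epidermal genes and the Langerhans cell gene Cd207, with a line at the arithmetic mean. Krt5 and Krt14 overlap between JAK3i and Tofa, whereas Lor is at 31.1 to 48.9 CPM in JAK3i against 1061 to 1661 CPM in Tofa, and JAK1i is split, with JAK1i #1 and #2 low and JAK1i #3 high for the suprabasal genes.

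AP-1 factors regulate many genes of epidermal differentiation through sites that the letters TGANTCA cover. The search took any middle base, which is wider than the usual C or G. These letters read the same on both strands. They were found in 6 of 18 interfollicular genes with a RefSeq sequence (33.3%) and in 6 of 23 cornified envelope genes (26.1%), against 5.94% of the 13138 genes. Ivl at chr3:92573686-92573985 (minus strand), Lor at chr3:92083093-92083392 (minus strand) and Flg2 at chr3:93197023-93197322 (plus strand) are shown with the match in capitals, because their differences were among the widest of the epidermal list. All 3 lie on chromosome 3, in the cluster of epidermal differentiation genes. The window of Hrnr in the same cluster had no match. The middle base was C in Ivl, G in Lor and A in Flg2, so the Flg2 match lies outside the usual form.
Ivl: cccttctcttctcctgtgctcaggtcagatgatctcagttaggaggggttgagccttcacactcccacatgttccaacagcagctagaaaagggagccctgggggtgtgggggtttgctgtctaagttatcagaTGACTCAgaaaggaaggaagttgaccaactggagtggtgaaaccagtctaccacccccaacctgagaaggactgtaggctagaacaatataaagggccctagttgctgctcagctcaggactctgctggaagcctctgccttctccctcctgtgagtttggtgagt
Lor: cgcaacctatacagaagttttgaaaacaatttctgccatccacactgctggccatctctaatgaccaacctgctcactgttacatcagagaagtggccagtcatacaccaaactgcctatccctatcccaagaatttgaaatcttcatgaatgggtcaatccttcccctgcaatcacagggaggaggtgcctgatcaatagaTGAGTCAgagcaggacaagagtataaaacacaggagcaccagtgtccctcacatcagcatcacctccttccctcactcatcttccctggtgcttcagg
Flg2: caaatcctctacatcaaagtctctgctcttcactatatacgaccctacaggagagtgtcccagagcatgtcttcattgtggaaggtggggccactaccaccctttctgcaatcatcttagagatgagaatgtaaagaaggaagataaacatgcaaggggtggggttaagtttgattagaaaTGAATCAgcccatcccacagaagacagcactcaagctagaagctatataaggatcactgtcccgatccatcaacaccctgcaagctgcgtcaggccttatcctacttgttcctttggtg

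Keratins of the follicle's companion layer and of stressed skin followed the suprabasal genes in part. Of 7 genes 4 fell, against 20.7% of all genes, with a median of -0.90. Krt17, induced in AA and in wounded skin, had 171, 205 and 220 CPM in JAK3i, against 1004, 1022 and 1206 CPM in Tofa and 4161, 4971 and 4414 CPM in vehicle libraries (-2.44 ± 0.29). Krt80 and Krt79 fell by 2.39 and 1.57. Krt6a fell by 0.75, and Krt16, named after its values were seen, was not called (-0.40, 95% CI -1.54 to 0.74).

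Langerhans cells, the dendritic cells that live in the epidermis, had less of their defining transcript in JAK3i skin. Cd207, which encodes langerin, had 2.69, 3.27 and 1.93 CPM in JAK3i, against 35.3, 24.2 and 31.0 CPM in Tofa and 15.4, 21.2 and 24.1 CPM in vehicle libraries (-3.52 ± 0.56, adjusted p = 4.76e-05). Groups did not overlap, and the Tofa libraries were above the vehicle libraries. JAK1i was split here too, with 3.80, 2.74 and 23.0 CPM. Of 16 dendritic and Langerhans cell genes 8 fell and 4 rose, against 20.7% and 18.7% of all genes, with a median of -0.63. Epcam, carried by Langerhans cells and by follicle epithelium, fell by 1.31, and Flt3, the receptor that dendritic cells need to develop, by 1.41. Cd209a, Mgl2 and Ccl22 fell by 2.68, 2.45 and 2.63. The 4 rises were Itgax, Cd83, Batf3 and Fscn1, of which 2 were called without JAK3i #1, Tofa #1 or Tofa #3. Itgax, which encodes CD11c and is also made by macrophages, had 87.0, 118 and 30.5 CPM in JAK3i, against 12.4, 13.1 and 14.1 CPM in Tofa and 73.5, 61.4 and 85.5 CPM in vehicle libraries. Flt3, Cd209a, Mgl2, Ccl22, Batf3 and Fscn1 were named after their values were seen.

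MHC class II genes, through which dendritic cells and macrophages present antigen to CD4+ T cells, were lower in JAK3i. Of 11 genes 7 fell and the other 4 were not called, with a median of -0.94. H2-Ob and H2-Oa, which control peptide loading in B cells and dendritic cells, changed by -2.32 ± 0.50 and -1.92 ± 0.49. H2-Eb1 had 197, 173 and 143 CPM in JAK3i, against 529, 492 and 580 CPM in Tofa and 672, 652 and 803 CPM in vehicle libraries (-1.64 ± 0.46). H2-Aa and Cd74, named after their values were seen, were not called, at -0.66 (95% CI -1.55 to 0.22) and -0.90 (-1.89 to 0.09). With JAK3i #3 as the sole JAK3i library 2 of the 11 were called lower, without it 3 were, and without Tofa #3 4 were. Relative to each cohort's pretreatment library no call was left by edgeR. MHC class I genes differed little, with a median of -0.14. Of 14 genes 3 fell, near the 20.7% of all genes, and the other 11 were not called. B2m, the light chain of class I, fell by 0.56, with 1452, 1356 and 1376 CPM in JAK3i against 2061, 1883 and 2244 CPM in Tofa libraries.

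IFN-γ response genes were lower in JAK3i than in Tofa skin, but the size of the difference depended on single Tofa libraries. Of 30 genes 18 fell and 1 rose, against 20.7% and 18.7% of all genes, with a median log2 fold change of -0.75. Without Tofa #3 the fit called 9 lower, with JAK3i #3 as the sole JAK3i library 5, and relative to each cohort's pretreatment library 1. Summed levels were 832 to 1091 CPM in JAK3i, 1060 to 2484 CPM in Tofa and 6080 to 6612 CPM in vehicle libraries, so all 6 treated libraries were far below vehicle. Igtp, a GTPase of the immunity-related family, had 41.1, 27.3 and 35.6 CPM in JAK3i, against 126, 42.4 and 226 CPM in Tofa and 453, 428 and 479 CPM in vehicle libraries (-1.92 ± 0.52, adjusted p = 0.00581). Tofa #2 was close to the JAK3i libraries and Tofa #1 and #3 were above them. Irgm2 followed Igtp, with 41.0, 25.8 and 34.0 CPM in JAK3i against 157, 43.8 and 221 CPM in Tofa libraries. Igtp and Irgm2 were picked after their values were seen.

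The IFN-γ genes with the smallest p differed less but more evenly. Cxcl10, a chemokine that draws T cells into skin, had 2.79, 1.79 and 2.69 CPM in JAK3i, against 5.04, 4.67 and 3.77 CPM in Tofa and 139, 124 and 123 CPM in vehicle libraries (-0.89 ± 0.20). Its relative Cxcl9, named after its values were seen, was not called, at -0.50 (95% CI -0.95 to -0.04, adjusted p = 0.0763). Nlrc5, which switches on MHC class I, and Gbp2 fell by 0.91 and 0.80. The sole rise was Irf8, also a factor of macrophages and dendritic cells, with 64.0, 61.8 and 50.7 CPM in JAK3i against 22.6, 23.8 and 26.1 CPM in Tofa libraries.

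Type I interferon genes moved both ways. Of 25 genes 7 rose and 5 fell, with a median of 0.18, beside 18.7% of all genes higher and 20.7% lower. Oasl1 had 13.9, 8.58 and 12.4 CPM in JAK3i, against 2.60, 2.06 and 3.03 CPM in Tofa and 12.8, 11 and 12.6 CPM in vehicle libraries (2.18 ± 0.28), so it stood at the vehicle level in JAK3i skin. Oas1a changed by 0.93, while Irf9 and Ifih1 fell by 0.70 and 0.56. Isg15, named after its values were seen, fell by 1.02. Calls of this list moved with single libraries: without JAK3i #2 the fit called 12 higher, without JAK3i #1 it called 3 and without JAK3i #3 it called 4.

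STAT factors bind the letters TTCNNNGAA (a GAS element), which read the same on both strands. They were found in 9 of the 17 IFN-γ response genes with a RefSeq sequence (52.9%), against 7.11% of the 13138 genes. Igtp at chr11:58199306-58199605 (plus strand) and Irgm2 at chr11:58214727-58215026 (plus strand), close together on chromosome 11, are shown with the match in capitals because they moved together over the libraries. Cxcl10 and Gbp2 had no match in this window.
Igtp: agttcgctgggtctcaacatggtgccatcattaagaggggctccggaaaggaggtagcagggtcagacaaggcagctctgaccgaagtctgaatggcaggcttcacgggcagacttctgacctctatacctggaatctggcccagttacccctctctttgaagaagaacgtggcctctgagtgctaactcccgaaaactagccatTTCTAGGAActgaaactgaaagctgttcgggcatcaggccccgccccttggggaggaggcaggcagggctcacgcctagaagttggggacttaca
Irgm2: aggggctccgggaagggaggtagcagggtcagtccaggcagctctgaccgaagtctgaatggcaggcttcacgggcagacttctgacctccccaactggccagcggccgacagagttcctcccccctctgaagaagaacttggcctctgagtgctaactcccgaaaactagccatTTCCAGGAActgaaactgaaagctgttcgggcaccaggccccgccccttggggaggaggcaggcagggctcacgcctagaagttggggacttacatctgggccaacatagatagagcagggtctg

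The defining genes of cytotoxic T cells were low in both groups, while some granule genes were lower in JAK3i. Cd8a, the coreceptor of cytotoxic T cells, had 2.37, 5.11 and 2.69 CPM in JAK3i, against 3.92, 3.29 and 3.29 CPM in Tofa and 97.5, 111 and 122 CPM in vehicle libraries, with a log2 fold change of -0.05 (95% CI -0.72 to 0.63). Gzmb, the granzyme that kills target cells, had 0.949, 0.971 and 1.42 CPM in JAK3i against 1.47, 0.836 and 1.17 CPM in Tofa libraries (-0.05, -0.85 to 0.74). The groups overlapped for both, with vehicle far above. Ifng was under 1 CPM in all 6 libraries, with a log2 fold change of 0.17 (-0.74 to 1.08), and Klrk1, which encodes NKG2D, had one of -0.67 (-1.48 to 0.15). A p above the threshold does not show that these levels were equal, and the intervals give the differences the data allow.

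Gzmc, a granzyme gene, had 1.48, 1.23 and 0.964 CPM in JAK3i, against 14, 12.4 and 15.7 CPM in Tofa and 19.8, 19.2 and 25 CPM in vehicle libraries (-3.51 ± 0.41, adjusted p = 1.56e-06), so all JAK3i libraries lay below all Tofa libraries, and these below all vehicle libraries. The wider T cell lists split. Of 20 T cell genes 7 fell and 2 rose, with a median of -0.54, and of 21 cytotoxic and resident effector genes 7 fell and 2 rose, with a median of -0.17. Over all genes 20.7% fell and 18.7% rose. With JAK3i #3 as the sole JAK3i library 4 and 3 genes of these lists fell. Cd3g, a chain of the T cell receptor complex, had 4.27, 5.88 and 4.36 CPM in JAK3i, against 17.1, 11.3 and 13.2 CPM in Tofa and 41.4, 53.8 and 52.0 CPM in vehicle libraries (-1.52 ± 0.27, adjusted p = 0.000135). Itgae, the integrin that holds T cells in epithelium, had 5.43, 6.23 and 6.39 CPM in JAK3i against 16.8, 15.1 and 16.6 CPM in Tofa libraries (-1.42 ± 0.29), and Thy1, high on the γδ T cells of mouse epidermis, fell by 1.37. The factor Runx3 fell by 1.20 and perforin (Prf1) was lower too, with 1.16, 1.23 and 2.28 CPM in JAK3i against 4.90, 2.36 and 3.40 CPM in Tofa libraries. Groups were apart in each. Eomes, a factor of effector T and NK cells, changed by 2.05 ± 0.47 from low levels, with 1.42, 0.460 and 1.12 CPM in JAK3i and 0.196, 0.147 and 0.372 CPM in Tofa libraries.

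Cd4 was among the clearest differences of the comparison. It had 111, 90.2 and 104 CPM in JAK3i, against 6.71, 8.60 and 7.38 CPM in Tofa and 7.82, 5.91 and 7.39 CPM in vehicle libraries (3.75 ± 0.16, adjusted p = 6.39e-12), and all 21 other libraries were below 10 CPM. Cd28, a costimulatory receptor, had 20.5, 13.1 and 19.4 CPM in JAK3i against 1.22, 3.05 and 1.86 CPM in Tofa libraries (3.11 ± 0.33). All JAK3i libraries carried both rises, including JAK3i #3, with which alone Cd4 changed by 3.77 ± 0.19. Genes of the T cell receptor complex did not rise with Cd4: Cd3d, Cd3e and Cd3g fell by 1.42, 1.40 and 1.52, and Foxp3, the factor of regulatory T cells, was not called (-0.34, 95% CI -1.04 to 0.35). Of 10 regulatory T cell genes 4 fell, against 20.7% of all genes, and 6 were not called. The falls included Ctla4 and Ccr8, by 1.63 and 2.33. Cd3d and Cd3e were named after their values were seen.

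**Figure D4:**
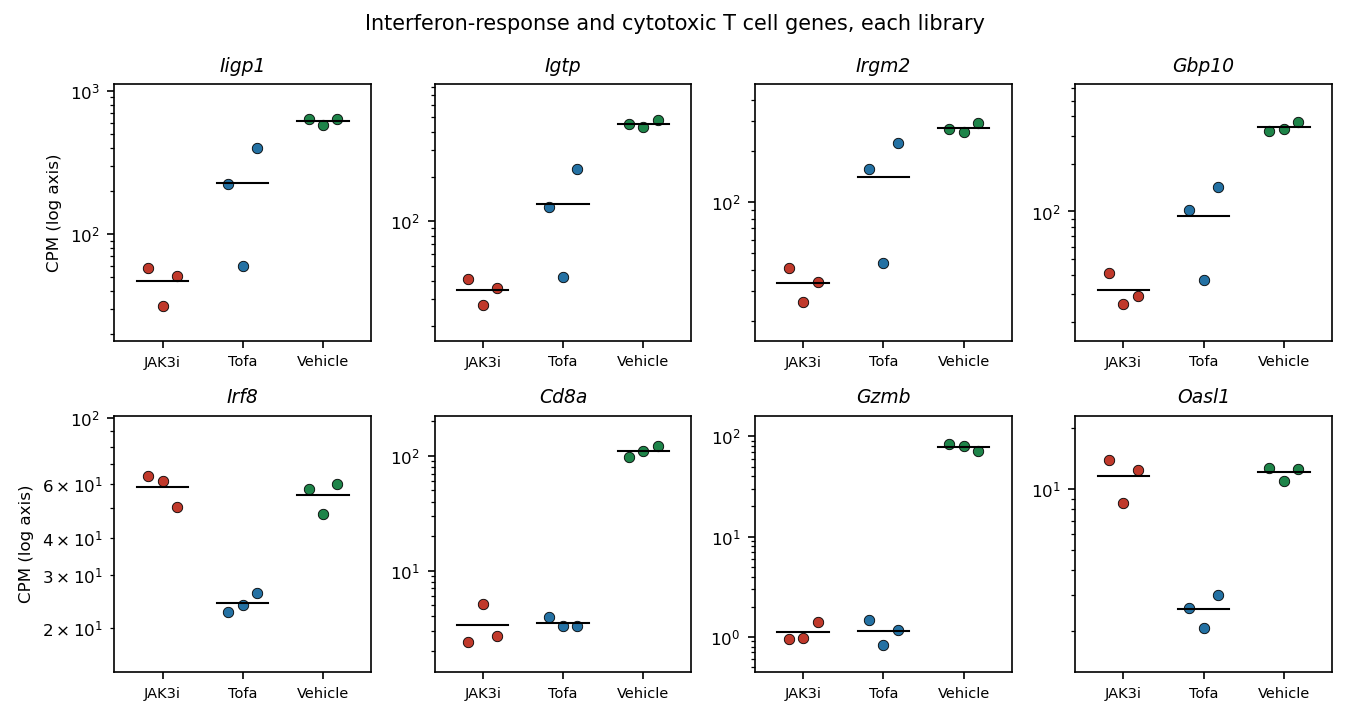
CPM on a log axis (y) in each JAK3i, Tofa and vehicle library (points, n = 3 each) for interferon-response genes, Cd8a and Gzmb, with a line at the arithmetic mean. For Igtp, Irgm2, Iigp1 and Gbp10, picked after their values were seen, Tofa #2 lies nearest the JAK3i libraries, Cd8a and Gzmb overlap between JAK3i and Tofa far below vehicle, and Oasl1 is at 8.58 to 13.9 CPM in JAK3i against 2.06 to 3.03 CPM in Tofa.

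Transcripts of receptors and cytokines of the γc family, which signal through JAK1 and JAK3, did not move as a group. Of 11 genes 2 rose and 2 fell, near the 18.7% and 20.7% of all genes, with a median of -0.25. Il2rg, which encodes γc itself, had 14.2, 11.5 and 13.3 CPM in JAK3i, against 17.7, 21.0 and 22.1 CPM in Tofa and 50.1, 47.8 and 54.5 CPM in vehicle libraries (-0.64 ± 0.13). Il7r, the IL-7 receptor of T cells and some myeloid cells, had 42.0, 66.6 and 14.9 CPM in JAK3i, against 9.35, 7.96 and 12.4 CPM in Tofa and 26.7, 26.3 and 28.6 CPM in vehicle libraries (2.06 ± 0.37), with JAK3i #3 only just above the Tofa libraries. Il21r changed by 0.89 and Il7 by -0.81. Il2rb and Il15, the receptor chain and cytokine tied to AA, were not called, at -0.59 (95% CI -1.23 to 0.05) and -0.25 (-0.75 to 0.24).

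Among the kinases and STATs, Jak3 was higher in JAK3i, with 56.9, 37.0 and 47.8 CPM against 30.6, 37.4 and 31.5 CPM in Tofa and 57.1, 54.8 and 55.1 CPM in vehicle libraries (0.51 ± 0.12, adjusted p = 0.00184), though the groups overlapped. Jak1 was lower, with 203, 198 and 202 CPM in JAK3i, against 245, 243 and 266 CPM in Tofa and 247, 263 and 266 CPM in vehicle libraries (-0.32 ± 0.07). Jak2, Tyk2, Stat3, Stat5a and Stat5b were not called, with log2 fold changes between -0.19 and 0.18. Of 12 genes known as STAT5 targets 3 rose and 2 fell, against 18.7% and 20.7% of all genes. Cish, a feedback inhibitor induced by STAT5 and named after its values were seen, had 17.8, 39.6 and 16.1 CPM in JAK3i, against 29.2, 33.3 and 28.3 CPM in Tofa and 80.1, 75.5 and 80.5 CPM in vehicle libraries, and was not called (-0.30, 95% CI -0.80 to 0.19). Osm and Igf1 changed by 1.78 and 0.76.

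Receptors that use JAK1 without JAK3 were listed apart because tofacitinib also reaches their kinase. Of 14 genes 5 rose and 2 fell, against 18.7% higher and 20.7% lower over all genes. Falls were thus no more frequent than among all genes. The rises were lost relative to each cohort's pretreatment library, which has no replicate. The falls were epithelial: Il22ra1, the IL-22 receptor of keratinocytes, had 5.01, 6.23 and 7.10 CPM in JAK3i against 49.9, 57.4 and 61.2 CPM in Tofa libraries (-3.20 ± 0.53), and Il20rb changed by -1.32 ± 0.21. Il10rb and Ifnar2 changed by 1.53 ± 0.22 and 1.11 ± 0.14, with all JAK3i libraries above all Tofa libraries. Ifngr1 and Ifngr2, named after their values were seen, were not called, at 0.02 and 0.21.

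Chemokines and their receptors showed both directions, with 9 of 30 genes higher, against 18.7% of all genes, and 7 lower, near the 20.7% of all genes. The falls numbered 3 or 4 without JAK3i #1, JAK3i #2 or Tofa #2. Ccl3, which attracts myeloid and T cells, had 6.85, 5.88 and 4.41 CPM in JAK3i, against 0.588, 0.295 and 0.372 CPM in Tofa and 3.77, 3.43 and 4.01 CPM in vehicle libraries (3.75 ± 0.42). Cxcl12, made by fibroblasts, had 740, 813 and 616 CPM in JAK3i against 259, 335 and 269 CPM in Tofa libraries (1.33 ± 0.15), and its receptor Cxcr4 changed by 2.58 ± 0.20. Complement genes rose in 5 of 13 and fell in 1, against 18.7% and 20.7% of all genes. All 3 JAK3i libraries were above all 21 others in 6 of the 13, which held for 6.84% of all genes. C3ar1, the C3a receptor of myeloid cells, had 162, 206 and 92.8 CPM in JAK3i against 11.5, 15.4 and 13.9 CPM in Tofa libraries. Of 19 genes of the type 2 and type 17 axis 9 fell and 10 were not called, with 5 falls without JAK3i #3 or Tofa #3. Retnla, made by macrophages that respond to IL-4, had 5.85, 0.971 and 9.996 CPM in JAK3i, against 82.2, 90.4 and 95.8 CPM in Tofa and 34.9, 22.8 and 76.3 CPM in vehicle libraries (-3.99 ± 0.97), and Arg1, another such gene, fell by 1.65. Areg, an epidermal growth factor, fell by 2.91.

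Sterol synthesis genes were lower in JAK3i skin. Of 20 genes 15 fell and the other 5 were not called, with a median of -0.80. Most of these calls were lost relative to each cohort's pretreatment library, which has no replicate. Hsd17b7 had 36.6, 39.8 and 43.1 CPM in JAK3i, against 109, 120 and 122 CPM in Tofa and 78.2, 74.9 and 69.7 CPM in vehicle libraries (-1.55 ± 0.13, adjusted p = 2.66e-08). Cyp51 had 66.1, 87.4 and 67.6 CPM in JAK3i against 172, 221 and 231 CPM in Tofa libraries, and Msmo1 and Hmgcs1 fell by 1.45 and 0.92. For Hsd17b7 the Tofa libraries also lay above vehicle. Srebf2, which switches these genes on and was named after its values were seen, was not called (-0.17). Sebaceous gland genes fell in 9 of 15 and rose in 1, with a median of -1.07, against 20.7% of all genes lower. Their summed levels overlapped, at 5158 to 7370 CPM in JAK3i and 5408 to 14268 CPM in Tofa libraries. Most of the falls were lost relative to the pretreatment libraries. Far2, which makes the alcohols of wax esters, had 36.9, 34.7 and 39.2 CPM in JAK3i, against 144, 120 and 100.8 CPM in Tofa and 37.4, 43.1 and 48.5 CPM in vehicle libraries (-1.72 ± 0.26), so it stood near the vehicle level in JAK3i. The sole rise was Soat1, which esterifies cholesterol in macrophages as well as in sebocytes (0.75 ± 0.13).

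Hair shaft keratins and inner root sheath genes showed no called difference between the inhibitors in the main fit. Of 13 hair shaft keratins and 9 inner root sheath genes 0 were called by edgeR in either direction, 0 had an unadjusted p below 0.05 and 0 were called by DESeq2. With the 6 JAK3i and Tofa libraries alone 1 inner root sheath gene, Tchh, was called lower (-0.61 ± 0.11). Tchh had 11.6 to 14.2 CPM in JAK3i against 19.5 to 20.5 CPM in Tofa libraries. All JAK3i libraries were below all 21 others for this gene. Summed levels of the shaft keratins were 7 to 11.5 CPM in JAK3i, 8.02 to 9.70 CPM in Tofa and 1249 to 2978 CPM in vehicle libraries, and those of the inner root sheath 22.2 to 28.9 CPM in JAK3i, 29.3 to 31.3 CPM in Tofa and 8291 to 13955 CPM in vehicle libraries. Intervals were wide at such levels: Krt71 had a log2 fold change of 0.32 (95% CI -1.47 to 2.10). Of 54 keratin-associated protein genes 2 fell and the other 52 were not called, among them Krtap12-1, which had no more than 0.158 CPM in the 6 libraries. One of the 2 was Krtap3-2, with 0.633, 0.92 and 1.32 CPM in JAK3i, against 36.9, 40.1 and 36.1 CPM in Tofa and 180, 113 and 112 CPM in vehicle libraries (-5.29 ± 0.95), and the other was Krtap3-3 (-4.86). JAK1i was split for Krtap3-2 as for the epidermal genes, with 2.35, 1.74 and 50.3 CPM. Cell cycle genes fell in 10 of 20 and rose in 1, with a median of -0.40, but 1 fell with JAK3i #3 as the sole JAK3i library. Relative to each cohort's pretreatment library no call was left by edgeR. Top2a and Ccna2 fell by 0.86 and 0.63. Over all genes 20.7% were called lower.

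Markers of the other tissues in the biopsy were compared because a shift in composition would move many genes together. Over all genes 18.7% were called higher and 20.7% lower in JAK3i. Adipocyte genes rose in 5 of 15 (median 0.32), in 1 without JAK3i #1, Tofa #1 or Tofa #3 and in 2 without JAK3i #3, with summed levels of 8985 to 10947 CPM in JAK3i and 5730 to 9964 CPM in Tofa libraries. Adipoq, the defining adipokine and named after its values were seen, was not called (0.00, 95% CI -0.62 to 0.63). Muscle genes summed to 38354 to 49979 CPM in JAK3i and 21151 to 54162 CPM in Tofa libraries, with 2 of 16 higher and 1 lower, and 4 higher without Tofa #1. Myosin types differed: the fast-fiber gene Myh4 had 2245, 388 and 934 CPM in JAK3i against 5842, 4916 and 7894 CPM in Tofa libraries (-2.39 ± 0.92), and Myh2 had 2628, 1238 and 3262 CPM in JAK3i against 1162, 328 and 433 CPM in Tofa libraries (1.89 ± 0.52). Of 27 fibroblast and collagen genes 4 rose and 2 fell, and without Tofa #3 none rose by edgeR. Of 13 endothelial genes 2 rose and 1 fell, and no rise was left by edgeR without JAK3i #1, JAK3i #3, Tofa #1 or Tofa #3. The muscle, fibroblast and endothelial counts were below the shares over all genes in both directions. Of 10 Schwann cell genes 5 fell and 5 were not called, with 3 falls without JAK3i #1, Tofa #2 or Tofa #3. The part of such shifts in the results above was not tested.

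Clock and stress genes also moved with the groups. Of 17 clock genes 8 rose and 3 fell, with a median of 0.44, against 18.7% higher and 20.7% lower over all genes. With Tofa #3 left out, 5 rose. These calls were lost relative to each cohort's pretreatment library, which has no replicate. Dbp, an output of the clock, had 123, 74.6 and 102 CPM in JAK3i, against 31.1, 26.5 and 14.1 CPM in Tofa and 5.43, 5.07 and 5.19 CPM in vehicle libraries (2.06 ± 0.40), and Clock fell by 0.51. JAK1i #1 and #2 were high for Dbp at 168 and 146 CPM and JAK1i #3 was at 26.5 CPM, the same split as for the epidermal genes. Of 16 immediate early and stress genes 11 fell and 1 rose, with a median of -0.97. Most of these falls were also lost relative to the pretreatment libraries. The chaperone genes Hsph1 and Dnajb1 changed by -1.37 ± 0.14 and -1.34 ± 0.13, with all JAK3i libraries below all Tofa libraries. The hour at which the biopsies were taken was not given in the sources used here, and its part was not tested.

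Among called genes with non-overlapping groups and a mean log2 CPM of at least 1, the largest fall belonged to Ifi202b, an interferon-induced gene of a family with near-identical copies (chromosome 1, 173962569 to 173982844). It had 0.0527, 0.0511 and 0.101 CPM in JAK3i, which was 4 counts over the 3 libraries, against 29.9, 13.8 and 36.2 CPM in Tofa libraries (-8.47 ± 0.56, adjusted p = 2.79e-09). At so few counts the size of the fitted value is uncertain. The Tofa and Ruxo libraries were the sole high ones. Ruxo libraries had 13.6, 11.7 and 12.5 CPM, and all 18 remaining libraries, vehicle and pretreatment included, had 0.487 CPM or less. Serpinb6d, a protease inhibitor gene, had 3.64, 0.562 and 0.812 CPM in JAK3i, against 73.8, 331 and 326 CPM in Tofa and 2.48, 2.88 and 4.60 CPM in vehicle libraries (-7.19 ± 0.97), and Ruxo libraries had 2.33, 35.4 and 50.7 CPM.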

How the data were processed

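Skin biopsies of C3H/HeJ AA mice were sequenced as paired-end RNA-Seq. Per the labels, the authors aligned reads to mm10 (GRCm38) with tools that include Subread and deposited raw counts per gene, not normalized, with DESeq2 1.18.1 named for their own testing. The strand setting was not given in the sources used here. A second deposited table holds ALADIN score values of 7 AA signature genes per library, of which 5 are z-scored by the authors. It served only for the check of library names, in which each of its columns was set against all count libraries.

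Of 27179 genes in the count table, 855 had no symbol and took at most 0.608% of counts, and 26 symbols that had been turned into dates were restored. All 24 libraries entered 1 edgeR 4.0.16 quasi-likelihood fit (R 4.3.3) with 7 groups, TMM scaling and a filter of 10 counts (total of at least 15), which left 17770 genes. The contrast was JAK3i minus Tofa, p-values were adjusted by Benjamini-Hochberg over all genes tested, and a call needed an adjusted p below 0.05. The standard error was the log2 fold change divided by the square root of its F value. The median standard error was 0.164.

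Genes were named by a rule: the 10 largest rises and 10 largest falls among called genes whose groups did not overlap and whose mean log2 CPM over the 6 libraries was at least 1, in each gene list as many as 4 genes ranked first by p, and genes the paper names. Members and lists were chosen with earlier results of these data known. Coordinates and promoter sequences came from RefSeq on GRCm38.p6, with sequences for 13138 of the genes tested. Alternatives were DESeq2 1.42.0, other scaling, filters and libraries in the fit, a replicate block, a pretreatment baseline and leaving out each library. JAK3i #3 as the sole JAK3i library was added after seeing the data.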

Additional observations from a re-analysis of the deposited data

How the results depend on the processing

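The comparison called 6990 genes in the main setting. In none of the 15 alternatives was such a gene called in the opposite direction. Over all genes, changes of sign in those that lost their call were not counted. DESeq2 called 7180 genes, RLE size factors 6916, no filter 6554, the stricter filter 6827, and the 6 JAK3i and Tofa libraries alone 6266. Leaving out 1 library gave 5723 to 6326 genes. Relative to the pretreatment library of each cohort, which has no replicate, the calls came to 1292 genes, 485 higher and 807 lower in JAK3i, and 893 with a 2-fold difference, against 2170 in the main setting. Of the 232 named genes 122 lost their call there. With JAK3i #3 as the sole JAK3i library, an alternative chosen after seeing the data in which that library is assumed to vary like the others, 4015 genes were called, 1666 higher and 2349 lower, and 64 named genes lost their call. Some named genes, such as Cd8a and Gzmb, had no call in the main setting to lose, so these losses are not shares of 232 calls. The pretreatment setting rests on unreplicated baselines and the setting with JAK3i #3 on fewer libraries, and any further cause was not tested.

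Replicate numbers did not pair the libraries: same-numbered JAK3i and Tofa libraries had correlations of deviations of 0.02, -0.05 and -0.04. The 18 posttreatment libraries gave 6433 genes with the replicate block and 6570 without it. Counts were 17311913 to 21858670 per library, so genes below about 1 CPM rest on few counts. With 3 libraries per group, a difference under the intervals given cannot be told from none.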

Other observations

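Immune cells other than those above differed in part. Of 14 neutrophil genes 4 rose and 2 fell, and of 11 B and plasma cell genes 4 rose and 7 were not called. Cd79b, a chain of the B cell receptor, had a log2 fold change of 3.68. Mlana, a melanocyte gene, had 10.1, 6.69 and 3.10 CPM in JAK3i against 0.0979, 0.836 and 0.531 CPM in Tofa libraries. Tyrp1, another melanocyte gene, lay the other way, with at most 4.39 CPM in JAK3i and at least 8.01 CPM in Tofa libraries. Tyrp1 was not called in the main fit, and with the 6 JAK3i and Tofa libraries alone it changed by -1.68 ± 0.30. Lyve1, a gene of lymphatic vessels and of some macrophages, had 2.11, 8.12 and 2.18 CPM in JAK3i, against 32.5, 21.9 and 37.2 CPM in Tofa and 14.7, 16.7 and 21.9 CPM in vehicle libraries (-2.88 ± 0.59, edgeR adjusted p = 0.0006). Saa3, an acute phase gene, had 1.63, 2.25 and 3.15 CPM in JAK3i, against 0.196, 0.197 and 0.425 CPM in Tofa and 35.2, 32 and 20.3 CPM in vehicle libraries. Cdh19, a Schwann cell cadherin, had 4.17, 6.03 and 5.68 CPM in JAK3i, against 14.0, 16.9 and 16.2 CPM in Tofa and 2.67, 2.39 and 3.18 CPM in vehicle libraries.

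Over all genes tested, 18.7% were called higher and 20.7% lower in JAK3i. Of 13 mast cell genes 2 rose and 2 fell, of 12 melanocyte genes 2 rose, of 13 STAT3 target genes 3 rose and 2 fell, and of 11 checkpoint genes 1 rose and 1 fell. Of 20 hair matrix genes 1 rose and 4 fell, of 17 bulge genes 2 rose and 5 fell, with 2 falls without Tofa #2 and 3 without JAK3i #2, and of 17 lipid synthesis genes 4 fell, or 12 without Tofa #1. Of 95 respiratory chain genes 12 rose and 1 fell, with 2 rising without JAK3i #2, 3 without Tofa #3, 4 without JAK3i #1, 6 without Tofa #2 and 7 without JAK3i #3. Of 80 ribosomal protein genes 3 rose and 5 fell.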
